A study of Arabidopsis thaliana with 48 samples.

Results

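The genes described here are the ethylene receptors and the core of ethylene signalling, chosen by name from the pathway as 10 of the 34262 genes in the count table. They are the receptors *ETR1* (AT1G66340), *ERS1* (AT2G40940), *ETR2* (AT3G23150), *ERS2* (AT1G04310) and *EIN4* (AT3G04580), the kinase gene *CTR1* (AT5G03730), *EIN2* (AT5G03280), the transcription factor gene *EIN3* (AT3G20770), and the F-box genes *EBF1* (AT2G25490) and *EBF2* (AT5G25350). The rule for membership is the name alone, although the set was picked with earlier results of these data known. All 10 passed the minimum of a mean of 1 CPM (reads scaled to library size) that 17568 genes passed. The material was excised 4th rosette leaves of 21-day-old *Arabidopsis* plants, whose labels name no genotype (the study's methods give Col-0 as its wild type). Every sample shared a pre-treatment of 24 h darkness at 16°C followed by continuous light at 22°C, and no attached leaf, labelled second genotype or ethylene treatment was among the samples. RNA was sequenced every 0.5 h from 19.5 to 27 h after the treatment, with 3 replicates at each of the 16 time points (48 libraries), so that the only contrast is time.

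Ethylene is a gaseous hormone of stress, wounding, ripening and leaf senescence. Its receptors sit in the endoplasmic reticulum membrane and act as negative regulators: without ethylene they keep the CTR1 kinase active, which phosphorylates EIN2 and holds it inactive. When ethylene binds, CTR1 activity is lost, a part of EIN2 moves to the nucleus, and the EIN3 transcription factor, which EBF1 and EBF2 otherwise mark for degradation, accumulates. In *Arabidopsis*, transcripts of *ERS1*, *ETR2*, *ERS2* and *EBF2* are known to increase after ethylene treatment, whereas much of the control of EIN3 acts on the protein. Read counts give transcript levels only.

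The libraries held 23572988 to 38763552 counted reads (median 30954455), and 21312 to 22495 genes were detected in each. Values below are CPM after TMM normalization. It assumes that most genes do not change and rescales each library by a factor, here between 0.81 and 1.15. Of the 48 libraries, 26 resembled a library of another time point more than either replicate of their own, over 11460 genes. The libraries 22.5 h replicate 1 and 24 h replicate 3 stood apart from both of their own replicates (highest correlation -0.34 and -0.06). Variation over short periods, and the trends of *EIN2* and *EIN3*, are given below with and without them. Nothing in the labels or methods tells whether replicates came from separate plants or vessels. The p-values therefore set differences against the variation among these libraries, and that variation may be technical only.

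The members were expressed at very different levels. Per kb of merged exon, *EIN3* was the most abundant at 96 ± 13 CPM per kb (SD, n = 48 libraries), followed by *EBF2* at 75.4 ± 19 CPM per kb. *EBF1* averaged 51.4 ± 4.3, *CTR1* 39.9 ± 10, *ERS1* 34.1 ± 7.8 and *EIN2* 28 ± 2.2 CPM per kb. The remaining receptors were lower, with *ETR1* at 13.2 ± 0.96, *EIN4* at 6.53 ± 0.58, *ETR2* at 4.88 ± 2.3 and *ERS2* at 3.6 ± 0.95 CPM per kb. *ERS1* was thus the most abundant receptor transcript in every library, its lowest value of 18 CPM per kb lying above the highest *ETR1* value of 15.4 CPM per kb. Neighbours in this order overlapped over the libraries elsewhere, except that the lowest *EIN2* value of 24.3 lay above the highest *ETR1* value and the lowest *ETR1* value of 11.5 above the highest *EIN4* value of 7.8 CPM per kb. The lowest and highest values were 1.52 and 11.4 CPM per kb for *ETR2* and 1.64 and 5.55 CPM per kb for *ERS2*, so these 2 overlapped widely.

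Of the 10 genes, 3 overlap another coding gene in the RefSeq annotation, and the strand setting of the counting is not given in the sources used here. *ERS1* shares 56 bases with AT2G40935 on the opposite strand (median 4.96 CPM), *ETR1* shares 38 bases with AT1G66345 on the same strand (median 2.83 CPM), and *EBF2* shares 533 bases with AT5G25340 on the opposite strand, which had at most 0.0333 CPM in any library. The share of reads that the counting could have moved between these genes was not tested.

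To see which members changed over the sampling window, each gene was tested for any difference among the 16 time points and for its slow change, the fitted linear change on the log2 scale at 27 h against 19.5 h. *ETR2*, *ERS1*, *ERS2*, *CTR1* and *EBF2* rose by 0.45 to 1.46 on this scale. *EIN2* and *EIN3* rose by 0.11 and 0.16 (0.42 and 0.47 with library totals), *ETR1* fell by 0.13 (but rose with library totals, as given below), and *EIN4* and *EBF1* did not pass the test. A difference among time points was called for 6 of the 10 members (*ERS1*, *ETR2*, *CTR1*, *EIN2*, *EIN3* and *EBF2*; edgeR's quasi-likelihood test, Benjamini-Hochberg adjustment over 17568 genes), against 63.8% of all genes tested. The slow change was called for 8 of 10 members, against 55.0% of all genes. Of these 8, 7 rose, beside 27.9% of all genes that rose, and 1 fell, beside 27.1% of all genes. The median slow change was 0.30 over the 10 members and 0.01 over all genes tested. Every member except *ETR1* and *EIN4* had its lowest time-point mean at 19.5 h, the first time point. In bulk leaf RNA, a change in the number of cells that express a gene and a change in RNA per cell cannot be told apart.

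Directions depend on the scaling for 2 genes. With library totals in place of TMM, the median gene changed by 0.32 rather than 0.01, and all 10 members rose, beside 62.7% of all genes. *ETR1* and *EIN4* turned to 0.18 and 0.25 (edgeR adjusted p = 0.00294 and 0.00884), and *EBF1*, which did not pass with TMM, to 0.34 (edgeR adjusted p = 8.12e-07). The other 7 moved up by about the shift of the median gene. Leaving out a replicate number bears on the other calls. Without replicate 2, no member was called for a difference among time points (edgeR, 3 members at an unadjusted p under 0.05, and 1590 of all genes called against 11201), and the slow rise passed for *ERS1*, *ETR2* and *CTR1* alone (6676 of all genes called, against 9662).

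**Figure D1:**
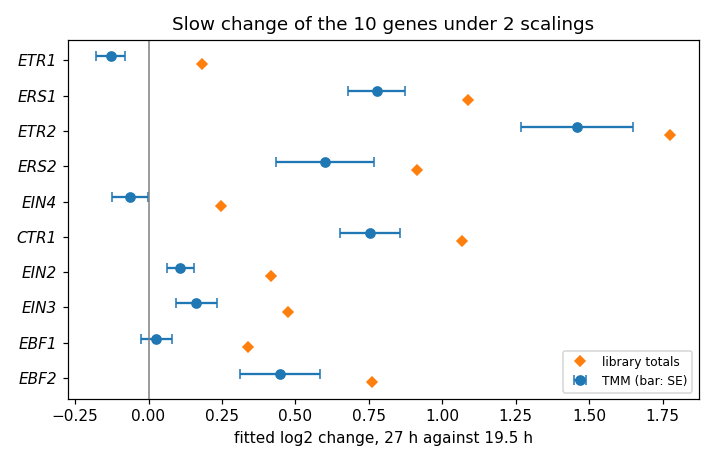
Fitted log2 change at 27 h against 19.5 h for each of the 10 genes, with TMM normalization (circles, bars are the SE of the fit) and with library totals (diamonds, no error drawn). *ETR2* has the largest change at 1.46 under TMM, and *ETR1* and *EIN4* lie below 0 under TMM and above 0 under library totals.

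*ETR2* had the largest change of the 10. ETR2 is a receptor of subfamily 2, which lacks residues needed for histidine kinase activity. At 19.5 h its replicates held 6.69, 7.8 and 5.61 CPM, at 20 h 12.8, 13.8 and 9.83 CPM, and at 20.5 h 6.35, 8.18 and 13.6 CPM. At 21 h they stood at 20, 17 and 21.2 CPM, above every earlier library. The replicates then held 8.32, 11.8 and 11.4 CPM at 21.5 h and 4.93, 6.03 and 10.3 CPM at 22 h, where the lowest library of the course lies. At 22.5 h they were spread over 20.2, 12.2 and 5.76 CPM, the highest being the library that stood apart. Values ran from 13.3 to 17.1 CPM in the 6 libraries of 23 and 23.5 h and were 22.4, 20.3 and 9.47 CPM at 24 h, the lowest of these again a library that stood apart. From 24.5 to 25.5 h they were 17, 13.8 and 22, then 11.6, 20.2 and 23.7, then 9.27, 10.1 and 12.3 CPM. The highest values followed at once, with 23.6, 36.9 and 31.1 CPM at 26 h, 28, 21 and 21.3 CPM at 26.5 h and 26.4, 25.9 and 24.8 CPM at 27 h. The highest time-point mean was 30.6 ± 6.7 CPM at 26 h and the lowest 6.7 ± 1.1 CPM at 19.5 h (SD, n = 3 each), 4.56 times apart. Their replicates did not overlap, which is a description only, because these time points were picked as the extremes. The slow change was 1.46 (SE 0.19, edgeR adjusted p = 1.63e-07), between 1.22 and 1.67 when any 1 replicate number, time point or library was left out. The late libraries (25.5 to 27 h) had 9.27, 24.2 and 36.9 CPM as lowest, median and highest, the early ones (19.5 to 21 h) 5.61, 11.3 and 21.2 CPM, and 8 of 12 late libraries exceeded every early one. The rise was therefore not smooth, and the means at 21.5, 22 and 25.5 h (10.5, 7.07 and 10.6 CPM) lay within the range of the first 3 means (6.7 to 12.1 CPM).

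*ERS1* encodes a subfamily 1 receptor, with the histidine kinase domain but without the receiver domain found in ETR1. It had 51.5, 43.8 and 55 CPM at 19.5 h, 62.8, 60.3 and 59.6 CPM at 20 h, and 74.5, 79.2 and 75.6 CPM at 20.5 h. The 3 replicates kept close together in this first hour, and each time point lay above the one before. At 21 h the replicates held 75.9, 76.3 and 77.1 CPM, and from 21.5 to 24 h they ran from 56.3 to 97.6 CPM and overlapped from each time point to the next. At 24.5 h values were 112, 114 and 100 CPM, above all 30 libraries before. Values of 105, 95.4 and 85.2 CPM followed at 25 h and 64.9, 74.6 and 104 CPM at 25.5 h. At 25.5 h, 2 of the 3 libraries lay below all those of 25 h. At 26 h the libraries stood at 118, 112 and 89.5 CPM, at 26.5 h at 93.1, 97.4 and 110 CPM, and at 27 h at 95.2, 104 and 119 CPM. The mean was 106 ± 12 CPM at 27 h and 50.1 ± 5.7 CPM at 19.5 h (SD, n = 3 each), without overlap. The slow change was 0.78 (SE 0.10, edgeR adjusted p = 5.42e-08) and stayed between 0.61 and 0.85 with any replicate number, time point or library left out. Of the 12 late libraries, 10 lay above the highest early one of 79.2 CPM.

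*ERS2*, the other ERS-type receptor and a member of subfamily 2, was the least abundant member per length. Its libraries ran from 4.25 CPM through a median of 9.77 to 14.4 CPM. The mean was 10.3 ± 1.2 CPM at 27 h and 5.93 ± 0.69 CPM at 19.5 h (SD, n = 3 each), and the highest mean was 11.9 ± 2.7 CPM at 25 h. The slow change was 0.60 (SE 0.17, edgeR adjusted p = 0.00299). Replicates were spread widely, as at 22.5 h with 12.2, 10.8 and 5.65 CPM, and without replicate 2 the change of 0.60 no longer passed (edgeR adjusted p = 0.075).

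*ETR1* and *EIN4* were nearly flat. *ETR1*, a subfamily 1 receptor and the first ethylene receptor to be identified, had 31.9 CPM as its lowest, 36.5 CPM as its median and 42.6 CPM as its highest library. Its late libraries had a median of 35.4 CPM and its early ones 39.1 CPM, with overlap. The slow change of *ETR1* was -0.13 (SE 0.05, edgeR adjusted p = 0.0242), its sign turning with library totals, and it lost the call without replicate 1 or 2, or without the 20, 20.5 or 21 h time point. *EIN4*, a subfamily 2 receptor, ran from 17.5 through 21.5 to 26 CPM, with a late median of 21.3 CPM and an early one of 21.9 CPM. Its slow change was -0.06 (SE 0.06, edgeR adjusted p = 0.393).

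**Figure D2:**
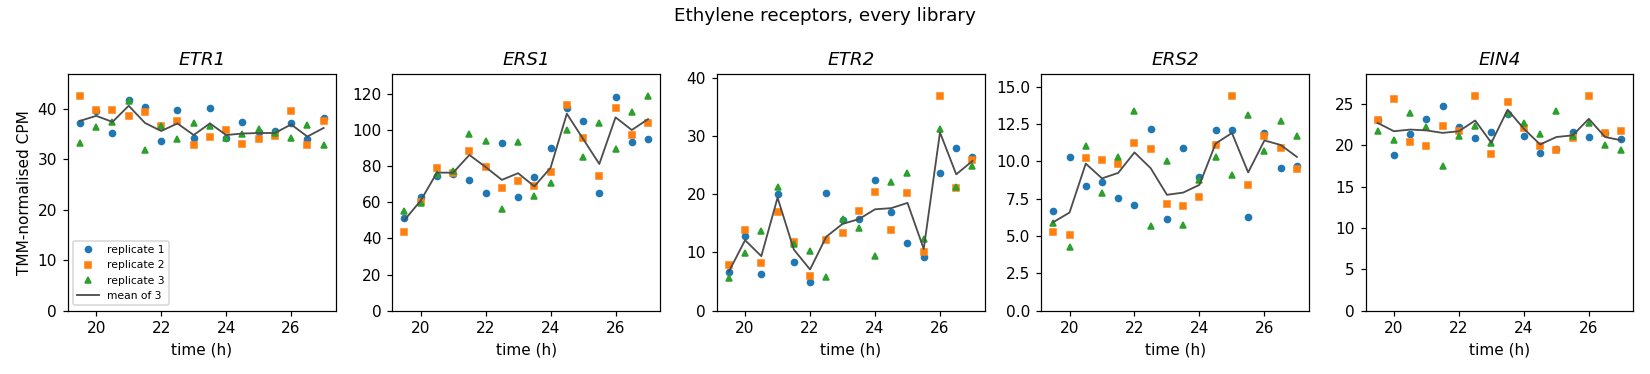
TMM-normalised CPM of the 5 receptor genes (vertical axes, each starting at 0) in every library by time in h (horizontal axis), with a marker for each replicate number and a line through the mean of 3. *ERS1* and *ETR2* are higher late than early, whereas the *ETR1* libraries stay between 31.9 and 42.6 CPM.

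The stretches before the starts of the 5 members with the largest slow rise are shown here. They are the 250 bases before the RefSeq gene start in TAIR10.1. The count table holds no coordinates, and the reads had been mapped to TAIR10. Each was searched on both strands for an EIN3 consensus (ACGAACCT, ACGAATCT, ACGTACCT, ACGTATCT, ATGAACCT, ATGAATCT, ATGTACCT or ATGTATCT), the GCC box GCCGCC bound by ethylene response factors, and the evening element AAAATATCT of clock-controlled promoters. Of 27438 such promoters in the genome, 5.93% hold the EIN3 consensus, 1.87% the GCC box and 2.36% the evening element. Among the 10 members, *ERS1* alone had a match. It holds 2 overlapping EIN3 consensus spellings, ATGAATCT on the opposite strand from 76 to 69 bases before the start and ATGAACCT on the gene's strand from 70 to 63 bases before the start, which are in capitals below. *ERS1* is read from chr2:17087327-17087576 on the minus strand (its first 12 bases lie in AT2G40950), *ETR2* from chr3:8254309-8254558 on the plus strand, *CTR1* from chr5:979850-980099 on the minus strand, *ERS2* from chr1:1157814-1158063 on the minus strand and *EBF2* from chr5:8797350-8797599 on the minus strand.
ERS1: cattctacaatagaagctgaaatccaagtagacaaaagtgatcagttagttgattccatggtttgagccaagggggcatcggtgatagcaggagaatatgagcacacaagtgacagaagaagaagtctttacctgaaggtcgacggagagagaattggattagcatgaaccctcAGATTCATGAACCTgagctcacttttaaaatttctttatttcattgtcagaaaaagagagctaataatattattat
ETR2: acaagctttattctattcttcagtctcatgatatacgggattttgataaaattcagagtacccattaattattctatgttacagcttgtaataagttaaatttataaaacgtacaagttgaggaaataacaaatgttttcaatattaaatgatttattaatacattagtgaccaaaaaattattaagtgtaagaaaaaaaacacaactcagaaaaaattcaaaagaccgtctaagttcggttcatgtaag
CTR1: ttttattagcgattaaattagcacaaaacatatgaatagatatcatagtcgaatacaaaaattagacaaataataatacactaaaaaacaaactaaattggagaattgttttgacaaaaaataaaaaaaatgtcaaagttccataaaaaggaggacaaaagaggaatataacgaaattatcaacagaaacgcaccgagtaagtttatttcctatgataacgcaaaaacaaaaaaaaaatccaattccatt
ERS2: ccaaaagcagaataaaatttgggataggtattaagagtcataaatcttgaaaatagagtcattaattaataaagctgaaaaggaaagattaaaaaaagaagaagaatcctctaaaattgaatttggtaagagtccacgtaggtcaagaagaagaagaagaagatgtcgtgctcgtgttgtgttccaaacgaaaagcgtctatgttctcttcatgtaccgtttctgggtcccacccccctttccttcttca
EBF2: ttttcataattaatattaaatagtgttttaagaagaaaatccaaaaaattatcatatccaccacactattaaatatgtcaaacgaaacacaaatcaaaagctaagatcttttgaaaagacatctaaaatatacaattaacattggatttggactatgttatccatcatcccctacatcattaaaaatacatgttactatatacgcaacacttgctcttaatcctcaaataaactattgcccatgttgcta
The printed stretches differ in composition, with 38.0% G and C in *ERS1* against 26.0% in *ETR2*, 25.2% in *CTR1*, 36.4% in *ERS2* and 27.2% in *EBF2*. A match describes letters only and is not a bound site.

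*CTR1* encodes the Raf-like kinase that represses the pathway together with the receptors. At 19.5 h its libraries held 95.7, 95.8 and 90.8 CPM, and at 21 h 139, 128 and 132 CPM. At 22 h they held 80.6, 98.7 and 116 CPM, and at 22.5 h 151, 104 and 76.1 CPM, the highest being the library that stood apart. Replicates at 22.5 h thus covered the lowest value of the course and one above all earlier ones. At 24.5 h they held 171, 135 and 132 CPM, at 25.5 h 95.2, 112 and 148 CPM, and at 26 h 200, 226 and 168 CPM. At 26.5 h the values were 170, 161 and 183 CPM, and at 27 h 153, 169 and 199 CPM. The mean was 174 ± 24 CPM at 27 h and 94.1 ± 2.9 CPM at 19.5 h (SD, n = 3 each), and 10 of 12 late libraries exceeded the highest early library of 139 CPM. The slow change was 0.75 (SE 0.10, edgeR adjusted p = 2.56e-07), between 0.66 and 0.84 with any replicate number, time point or library left out.

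*EIN2*, the membrane protein whose C-terminal part carries the signal to the nucleus, and *EIN3*, the transcription factor, were abundant. Highest and lowest time-point means were 1.24 times apart for *EIN2* and 1.54 times for *EIN3*. *EIN2* libraries ran from 118 through 134 to 167 CPM, the highest being 22.5 h replicate 1, with means of 149 ± 4 CPM at 27 h and 121 ± 4.7 CPM at 19.5 h (SD, n = 3 each). Its slow change was 0.11 (SE 0.05, edgeR adjusted p = 0.0437) and did not pass when any 1 replicate number was left out. *EIN3* libraries ran from 174 through 241 to 277 CPM. *EIN3* had 243, 244 and 243 CPM at 27 h and 176, 182 and 179 CPM at 19.5 h, whereas its highest values stood in the middle of the course, with 277, 276 and 276 CPM at 24.5 h. The slow change of *EIN3* was 0.16 (SE 0.07, edgeR adjusted p = 0.0481), also lost when any 1 replicate number was left out, while its difference among time points passed with an edgeR adjusted p of 0.00437. Without the 19.5 h time point its slow change was 0.042 and did not pass. All 3 libraries of 19.5 h lay below every other *EIN3* library except 22.5 h replicate 3 (174 CPM). With 22.5 h replicate 1 and 24 h replicate 3 left out together, the slow changes of *EIN2* and *EIN3* were 0.121 and 0.19 (edgeR adjusted p = 0.00556 and 0.000648).

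*EBF1* and *EBF2* encode the F-box proteins that target EIN3. *EBF1* ran from 129 through 158 to 179 CPM, with 164, 157 and 155 CPM at 27 h and 143, 131 and 129 CPM at 19.5 h. Its slow change was 0.03 (SE 0.05, edgeR adjusted p = 0.701), and -0.05 without the 19.5 h time point. *EBF2* had 137, 108 and 158 CPM at 19.5 h, 264, 346 and 266 CPM at 21.5 h and 160, 264 and 326 CPM at 22 h. Its libraries at 22.5 h held 272, 152 and 138 CPM, at 25.5 h 138, 174 and 260 CPM, and at 27 h 252, 279 and 293 CPM. *EBF2* thus had its highest library of 346 CPM at 21.5 h. The late libraries (138, 256 and 293 CPM as lowest, median and highest) overlapped the early ones (108, 196 and 244 CPM), and 8 of 12 late libraries exceeded every early one. The slow change of *EBF2* was 0.45 (SE 0.14, edgeR adjusted p = 0.00631). It fell short without replicate 2 (0.41, edgeR adjusted p = 0.12) and without the 19.5 h time point (0.24, edgeR adjusted p = 0.155).

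**Figure D3:**
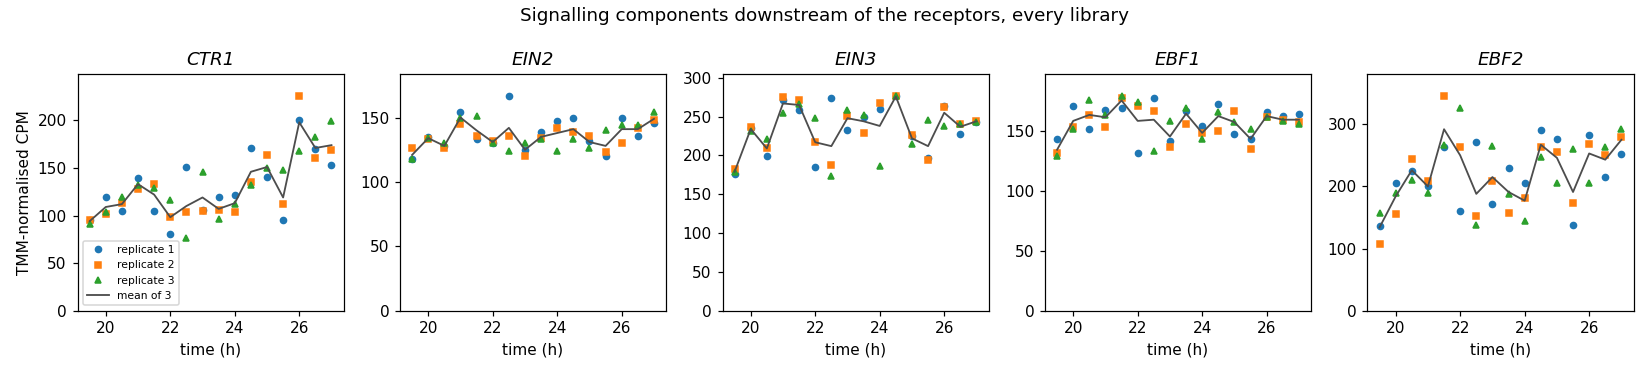
TMM-normalised CPM of *CTR1*, *EIN2*, *EIN3*, *EBF1* and *EBF2* (vertical axes, each starting at 0) in every library by time in h, with a marker for each replicate number and a line through the mean of 3. *CTR1* is highest from 26 to 27 h, and *EBF2* replicates are spread from 138 to 272 CPM at 22.5 h.

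Ratios between members within a library do not depend on library size. The slopes of 3 such ratios were tested by permuting whole time points (permutation test, two-sided, 100000 resamples, Benjamini-Hochberg over the 3). The ratio of *EBF2* to *EBF1* was 1.73 at 27 h and 0.99 at 19.5 h as geometric means of the 3 libraries. These were the highest and lowest means of the course, and single libraries ran from 0.82 to 1.95. The slow change of this ratio, 0.42 on the log2 scale, was positive in each of the 3 replicate numbers (0.33 to 0.55). It was 0.29 without the 19.5 h time point. With all libraries it did not pass the threshold after adjustment (permutation p = 0.0257, adjusted p = 0.0772). Without replicate 2 it did (change 0.36, permutation adjusted p = 0.0475). The summed CPM of *ETR2*, *ERS2* and *EIN4* over that of *ETR1* and *ERS1*, that is subfamily 2 over subfamily 1, was highest at 0.454 at 26 h and lowest at 0.335 at 21.5 h, with a change of 0.07 (permutation adjusted p = 0.536). The summed F-box genes over *EIN3* lay between 1.35 at 21 h and 1.86 at 20.5 h, with a change of 0.11 (permutation adjusted p = 0.536). A shift between the receptor subfamilies was not detectable, with changes of 0.01 to 0.12 within the 3 replicate numbers, although *ERS1* and *ETR2* both rose.

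**Figure D4:**
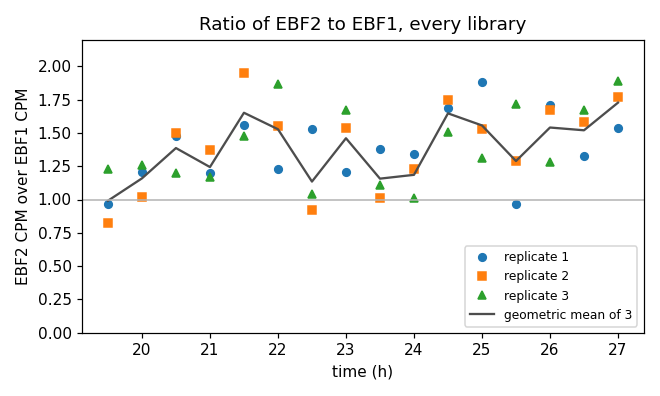
Ratio of *EBF2* CPM to *EBF1* CPM (vertical axis, from 0) in every library by time in h, with a marker for each replicate number, a line through the geometric mean of 3 and a horizontal line at 1. The mean ratio is highest at 27 h (1.73) and lowest at 19.5 h (0.99), and replicates of 22 and 25.5 h are far apart.

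The study sampled every 0.5 h to look for short rhythms, so the members were also tested for variation with periods from 2 to 4 h. This band had 6 cosine and sine terms, beside the slow terms, and 7 terms covered faster variation between neighbouring time points. The slow terms were only linear and quadratic, so variation slower than 4 h of another shape can enter these bands. *ERS1* was the only member called in the 2 to 4 h band (edgeR adjusted p = 0.0493), which is 1 of 10 against 6.56% of all genes. Its call was lost in 35 of 48 cases with 1 library left out. The same held in 10 of 16 cases with 1 time point left out and in 2 of 3 with 1 replicate number left out. *ETR2* followed with an edgeR adjusted p of 0.0635. The other 8 ranged from 0.116 to 0.867, and 5 members had an unadjusted p under 0.05, against 29.4% of all genes. As a description, the best single cosine for *ERS1* had a period of 3.4 h, an amplitude of 0.17 on the log2 scale and a first peak at 21.2 h. *ETR2* had a period of 2.9 h, an amplitude of 0.34 and a first peak at 20.8 h. *EIN3* and *EIN2* also gave 2.9 h, with amplitudes of 0.13 and 0.07, while *CTR1*, *EBF1* and *EBF2* gave 5 h, the end of the range searched and a period outside the band tested. In the faster band 2 of 10 members were called, *ETR2* and *EIN3* (edgeR adjusted p = 0.0143 and 0.0239), against 35.6% of all genes. Without 22.5 h replicate 1 and 24 h replicate 3 the count was 4 (7305 of all genes, against 6252), and without replicate 2 it was 0 (edgeR, no member at an unadjusted p under 0.05, and 27 of all genes). With 1 library left out it ran from 2 to 5 (5123 to 7048 of all genes).

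The band result was unstable to leaving out single libraries, and not only those that stood apart. With 1 library left out, the count of members moved from 1 in 36 of 48 cases. Without 21 h replicate 1 it was 0, with 0 of all genes called. With 22.5 h replicate 1 and 24 h replicate 3 left out together, 6 members were called in the 2 to 4 h band, namely *EIN3* (edgeR adjusted p = 1.5e-05), *ETR2* (0.000495), *ERS1* (0.00339), *EIN2* (0.00702), *CTR1* (0.0165) and *EBF2* (0.0311). Over all genes the same change moved the count to 5439 from 1152. Without 22.5 h replicate 1 alone the count of members was also 6 (4093 of all genes), and it was 0 to 2 when 1 replicate number was left out (edgeR, 0 to 1742 of all genes, and 0 to 6 members at an unadjusted p under 0.05). In the library 22.5 h replicate 1 itself, 9 of the 10 members were higher than in both other replicates of that time point, the exception being *EIN4*. The share of all genes that were higher there was not taken. This library differed from its own replicates over 11460 genes (highest correlation -0.34), so the count is not particular to the members.

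**Figure D5:**
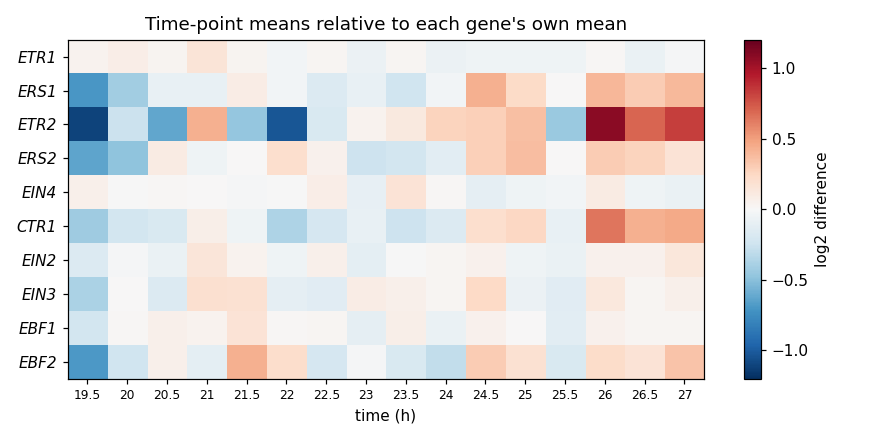
Mean of the 3 libraries of each time point (columns, time in h) for each of the 10 genes (rows), as log2 difference from the gene's own mean over the 16 time points. *ETR2* is highest at 26 h (30.6 CPM) and lowest at 19.5 h (6.7 CPM). The 25.5 h column is lower than both its neighbours for every gene except *ETR1* and *EIN4*, which show little colour.

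Members moved together to unequal degrees. Over the 48 libraries, with replicate means taken out, the correlation of log2(CPM + 1) was 0.85 for *ERS1* with *EBF2* and with *CTR1*, 0.82 for *ERS1* with *ERS2* and 0.82 for *ETR2* with *CTR1*. With the linear trend also taken out these were 0.89, 0.72, 0.78 and 0.68. Before that step *ETR1* was at 0.38 or below with every other member, and *EIN4* was at -0.39 with *ERS1* and -0.42 with *EBF2*. With the linear trend out, *ETR1* was at 0.45 or below. It rose to 0.45 from 0.07 with *ETR2* and to 0.44 from 0.05 with *CTR1*. The *EIN4* values were then -0.41 and -0.40. All points share libraries, depth and normalization, and the values are a description. Among the 11460 genes that averaged 10 CPM or more, those most like *ERS1* were *FBH4* (correlation 0.95), *APC10* (0.90) and *WRKY26* (0.90). *ETR2* was most like AT1G13000 (0.92), AT5G23870 (0.89) and *MDP40* (0.87), and *CTR1* like *WRKY26*, AT4G03420 and AT3G14840 (0.88 each). *EBF2* was most like AT1G73480 (0.92), *KCS12* (0.91) and *J8* (0.91), and *EIN3* like *AILP1* (0.93), *ATB' ALPHA* and *UBC2* (0.92 each).

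Other genes of the pathway were read from lists written for this comparison. Beside the counts that follow, 27.9% of all genes rose and 27.1% fell. Of 12 genes that act beside the core, 11 were tested, of which 6 rose and 5 did not pass the test. The 6 include *ARL* (slow change 1.64, SE 0.16, edgeR adjusted p = 5.83e-10) and *ARGOS* (1.14, SE 0.27, edgeR adjusted p = 0.000554), related genes that reduce ethylene sensitivity in *Arabidopsis* when overexpressed. Among the 6 are also *EIL1*, the closest homologue of *EIN3* (0.49, SE 0.09, edgeR adjusted p = 1.42e-05), and *XRN4* (0.25, SE 0.05, edgeR adjusted p = 2.55e-05), whose exoribonuclease is needed for ethylene response. Of 17 ethylene synthesis genes 11 were tested, of which 2 rose and 2 fell. Among the ACC synthase genes *ACS8* rose by 1.99 (SE 0.18, edgeR adjusted p = 2.67e-10) and *ACS7* fell by 2.02 (SE 0.35, edgeR adjusted p = 1.62e-05). Among the ACC oxidase genes AT1G12010 fell by 0.33 (SE 0.13, edgeR adjusted p = 0.0363). Of 19 ethylene response genes 18 were tested, of which 7 rose and 1 fell (*ERF3*, named after its values were seen, -0.08, edgeR adjusted p = 0.0493). The senescence regulator *NAC6* (*ORE1*) rose by 1.59 (SE 0.21, edgeR adjusted p = 2.47e-07), the defence gene *PR4* by 1.23 (SE 0.22, edgeR adjusted p = 2.32e-05), *ORA59* by 0.85 (SE 0.17, edgeR adjusted p = 8.01e-05) and *PDF1.2* by 1.68 (SE 0.55, edgeR adjusted p = 0.0103), although 1 library of *PDF1.2* reached 315 CPM against a median of 3.26 CPM. The median slow change was 0.11, -0.09 and 0.39 in these 3 lists, beside 0.01 over all genes. With library totals, 9, 4 and 13 genes of the 3 lists rose, beside 62.7% of all genes. *ERF3* then turned to 0.23 and AT1G12010 to -0.01, and *ACS7* still fell by 1.70.

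Markers of leaf cell types moved over the same window, and their part in the results above was not tested. Over all genes, 27.1% fell and 27.9% rose (9.31% and 62.7% with library totals). All 5 mesophyll markers fell, with a summed level of 17300, 40500 and 47700 CPM (lowest, median and highest) in late libraries and 46600, 64900 and 77400 CPM in early ones. The 3 tested epidermis markers of 4 fell (2 of them with library totals; 151, 269 and 311 CPM late, 278, 381 and 541 CPM early), and *CER1* was near 0 with a mean of 0.0468 CPM. Vasculature markers gave 3 of 5 that fell (with library totals 2 others rose; 620, 716 and 778 CPM late, 534, 880 and 1060 CPM early). Guard cell markers gave 1 that rose and 1 that fell of 4 (3 rose with library totals), with overlapping sums (45, 51.2 and 57.5 CPM late, 34.1, 48.4 and 53.5 CPM early). The labelled leaf material thus carried abundant mesophyll transcripts at every time point.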

How the data were processed

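RNA of 48 libraries was sequenced on an Illumina platform. Per the labels and the methods, reads were checked with FastQC, aligned to TAIR10 by STAR and assigned to genes by HTSeq, with no versions named. The annotation release and strand setting were not given in the sources used here. Deposited was a single table of raw read counts for 34262 genes, without normalization, and CPM were computed here from those counts. The methods state that the authors used TMM in edgeR for their own work. Depth was 23572988 to 38763552 counts per library. Time point and replicate number were taken from the sample titles.

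Genes averaging 1 CPM or more (17568) were tested in edgeR 4.0.16 (R 4.3.3) by the quasi-likelihood F test after TMM normalization, calling genes at a Benjamini-Hochberg adjusted p under 0.05. A single model held all libraries, the replicate number as a factor (as the methods describe for differential expression) and 15 orthonormal time terms: linear, quadratic, 6 for periods of 4 to 2 h and 7 for 1.6 to 1 h. The residual (30 degrees of freedom) is the variation among replicates of a time point. MetaCycle, which the authors used for rhythms, was not run. Best periods were fitted on log2(CPM + 1) from 2 to 5 h in steps of 0.1 h. No pair of replicates was close enough to be 1 library (lowest chi-square per degree of freedom 7.78). The scripts were tested on simulated data.

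The 10 members and the other gene lists were chosen with earlier results of these data known. Named genes are the members, the 3 genes most like a member among those of at least 10 CPM, and up to 4 genes per other ethylene list with the smallest adjusted p for the slow change or for any difference among time points. Marker lists cover mesophyll, guard cells, epidermis and vasculature. Symbols of the lists match the RefSeq table except for AT1G12010. Sequences are from RefSeq TAIR10.1. Alternatives were library totals or DESeq2 size factors as scaling, a CPM minimum of 5 or none, a model without the replicate factor, limma-voom (limma 3.58.1), DESeq2 1.42.0, a linear term or a 3 h cosine alone, a pseudocount for ratios, and each replicate number, time point and library left out, singly or for 2 libraries together. Library totals were also run on the other lists, chosen after seeing the data. The values of 1 gene in the lists are not reported here.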

Additional observations from a re-analysis of the deposited data

How the results depend on the processing

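Replicate numbers of different time points did not deviate together (median correlation -0.066 over 360 same-number pairs, 0.037 for other numbers). Of 48 libraries, 4 correlated best with their own number. The main model still held the replicate number as a factor, as the methods describe for differential expression. Without the replicate block, 6 members were called for a difference among time points, 8 for the slow change, 2 in the 2 to 4 h band (1808 of all genes, against 1152) and 3 for faster variation. The count of members in the 2 to 4 h band was 0 with no filter (703 genes, 6 members at an unadjusted p under 0.05), 4 with the DESeq2 test (3294 genes), 0 with a 3 h cosine alone (5 genes, 4 members unadjusted) and 6 without 22.5 h replicate 1 and 24 h replicate 3 (5439 genes). The count for faster variation was 4 with library totals (8257 genes), 6 with the DESeq2 test (7935 genes) and 4 without those 2 libraries (7305 genes), against 2 (6252 genes). The counts for any difference (6 to 9) and for the slow change (6 to 10) stayed within 1.5 times of 6 and 8 under all these alternatives, beside 9517 to 13965 and 8041 to 12654 of all genes. With library totals the slow change was 0.182 for *ETR1*, 0.247 for *EIN4* and 0.338 for *EBF1*. With TMM, the *EBF1* change ran from -0.049 (without 19.5 h) to 0.065 over the time points left out.

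Leaving out 1 replicate number gave 0 to 6 members for any difference, 3 to 6 for the slow change, 0 to 2 for the 2 to 4 h band and 0 to 3 for faster variation, the lowest each time without replicate 2 (for the 2 to 4 h band also without replicate 1). Over all genes the counts were 1590 to 8707, 6676 to 8293, 0 to 1742 and 27 to 4909. Leaving out 1 time point gave 4 to 8, 5 to 8, 0 to 6 and 0 to 5 members, beside 10034 to 12164, 8847 to 9951, 0 to 4770 and 3282 to 6666 of all genes. Leaving out 1 library gave 6 to 8, 5 to 8, 0 to 6 and 2 to 5 members, beside 10356 to 12232, 9145 to 10070, 0 to 4093 and 5123 to 7048 of all genes. The slow change count was 5 without 27 h replicate 3. The change of the *EBF2* to *EBF1* ratio was 0.36 to 0.46 without 1 replicate number and 0.29 to 0.48 without 1 time point (permutation adjusted p = 0.0252 to 0.309 over time points). The cause was not tested for any of these shifts. *ETR2* and *ERS2*, the least abundant members per length, had the widest spread between replicates of a time point (SD 0.42 and 0.36 on the log2 scale), and the part of depth in it was not tested.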
